A study of Saccharomyces cerevisiae with 12 samples.

Results

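The messenger RNA decay machinery of budding yeast was examined in cells lacking ZTA1 (YBR046C) and in their wild type. The 36 genes encode the decapping enzyme and its activators, the Lsm1-7 ring, the 5′ to 3′ exonuclease Xrn1 and the cap scavenger Dcs1, the Ccr4-Not and Pan2-Pan3 deadenylases with poly(A)-binding protein, the Ski complex and the core factors of nonsense-mediated decay. They were taken by name from the array's annotation. All 36 were measured, each by 1 probe, among 5594 annotated genes. The series compared ∆zta1 with FY834α, its wild type, on 2-colour Agilent arrays, as 3 pairs of cultures that had received hydrogen peroxide (H2O2; 10 mM, 30 min) and 3 untreated pairs. All cultures grew exponentially in rich YPD medium at 30 ºC, and each pair was hybridised a second time with the dyes exchanged, giving 12 arrays. Whether ∆zta1 was a single clone is not given in the sources used here. Every value is a log2 ratio of ∆zta1 over wild type, so 0 means equal transcript levels in both strains, and no array set H2O2-treated against untreated cells.

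Most yeast messenger RNAs are degraded after their poly(A) tail has been shortened by the Pan2-Pan3 and Ccr4-Not deadenylases. The Lsm1-7 ring with Pat1 then binds the shortened tail, Dcp2 removes the cap, and Xrn1 digests the body from the 5′ end. A second route runs from the 3′ end through the exosome with the Ski complex, and Dcs1 destroys the cap fragment that this route leaves. Nonsense-mediated decay sends transcripts with premature stop codons to decapping without prior deadenylation. The series' title describes zeta-crystallin, the quinone oxidoreductase encoded by ZTA1, as a protein that binds AU-rich elements, which in many transcripts govern stability.

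The deletion was visible on all 12 arrays, where ZTA1 ranged from -6.34 to -3.21. Ratios differed strongly with the dye. As a description across genes, Pearson's r had a median of 0.695 between arrays that shared an orientation and of 0.024 between the 2 arrays of 1 pair. Averaging a pair cancels this dye part only as far as it is equal and opposite on the 2 arrays, which was not tested. Untreated replicate 2 stood apart, with a standard deviation over genes of 0.161 against 0.111 to 0.127 in the other pairs. Its ratio also had the smallest size for ZTA1 among the untreated pairs (-4.32), and a median over 4 alpha-cell genes of 0.29, against -0.18 to 0.011 in the other pairs. The median over 7 a-cell genes was lowest in H2O2 replicate 2, at -0.13 against -0.044 to 0.025 in the other pairs. None of the 4 alpha-cell or 7 a-cell genes passed in any comparison. At an unadjusted p under 0.05 in limma there were 2 of 7 a-cell genes and 0 of 4 alpha-cell genes under H2O2, against 8.29% of all genes. Ratios cannot show whether alpha-cell genes were expressed at all, so the mating type was not checked.

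No transcript of the decay machinery passed the test for a difference between ∆zta1 and wild type. Under H2O2, 0 of 36 genes passed in limma at a Benjamini-Hochberg adjusted p under 0.05, where 0.215% of all 5594 genes did. In untreated cells 0 of 36 passed, against 0.197% of all genes, and over the mean of both treatments 0 of 36, against 0.286%. The adjusted p was at least 0.592 for every member under H2O2, 0.9995 in untreated cells and 0.469 over both. At an unadjusted p under 0.05 there were 5 of 36 under H2O2 (all genes, 8.29%), 1 in untreated cells (all genes, 3.65%) and 5 over both (all genes, 9.46%). Those under H2O2 comprised 4 above 0 (all genes, 3.06%) and 1 below (all genes, 5.24%), and those over both 4 above (all genes, 3.83%) and 1 below (all genes, 5.63%). These counts, and those over all genes, changed when single pairs were left out. The 5 under H2O2 became 1 when either H2O2 replicate 1 or H2O2 replicate 2 was left out. The 5 over both became 2 when either of these was left out. The counts over all genes without H2O2 replicate 1 or H2O2 replicate 2 are not given here, so these drops cannot be assigned to the members. The 5 over both became 3 without untreated replicate 1 or without untreated replicate 3. Over all 5594 genes that count was 529 with every pair, 474 without untreated replicate 1 and 369 without untreated replicate 3. The 1 in untreated cells became 0 without untreated replicate 1, untreated replicate 2 or H2O2 replicate 2. Over all genes the count in untreated cells was 204 with every pair, 357 without untreated replicate 1 and 128 without untreated replicate 2. The count at an adjusted p under 0.05 was likewise 0 without untreated replicate 2, and without any other pair.

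The ratios were also small. The mean of 3 pairs ranged from -0.098 to 0.093 under H2O2 and -0.065 to 0.075 in untreated cells, so the outermost folds under H2O2 were 0.934 for DCS1 and 1.07 for SKI2. In untreated cells they were 0.956 for EDC2 and 1.05 for NMD2. No member was beyond 0.1 in either direction under H2O2 or in untreated cells, where 5.83% and 4.72% of all genes were. The median size of the ratio, sign ignored, was 0.026 under H2O2 (all genes, 0.032) and 0.028 in untreated cells (all genes, 0.024). In untreated cells the typical ratio of the members was therefore not smaller than that of all genes. The median of the 36 was 0.015 under H2O2 and 0.020 in untreated cells, against -0.0023 under H2O2 and 0.00052 in untreated cells for all genes. Ratios above 0 were held by 23 of 36 under H2O2 (all genes, 47.9%) and 24 of 36 in untreated cells (all genes, 50.6%). Over the mean of both treatments 25 of 36 were above 0, against 48.2% of all genes. By pair, the median ratio came to 0.022, 0.024 and -0.019 in the H2O2 pairs and 0.015, 0.031 and 0.025 in the untreated pairs. It was below 0 in H2O2 replicate 3 and above 0 in the other 5 pairs.

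**Figure D1:**
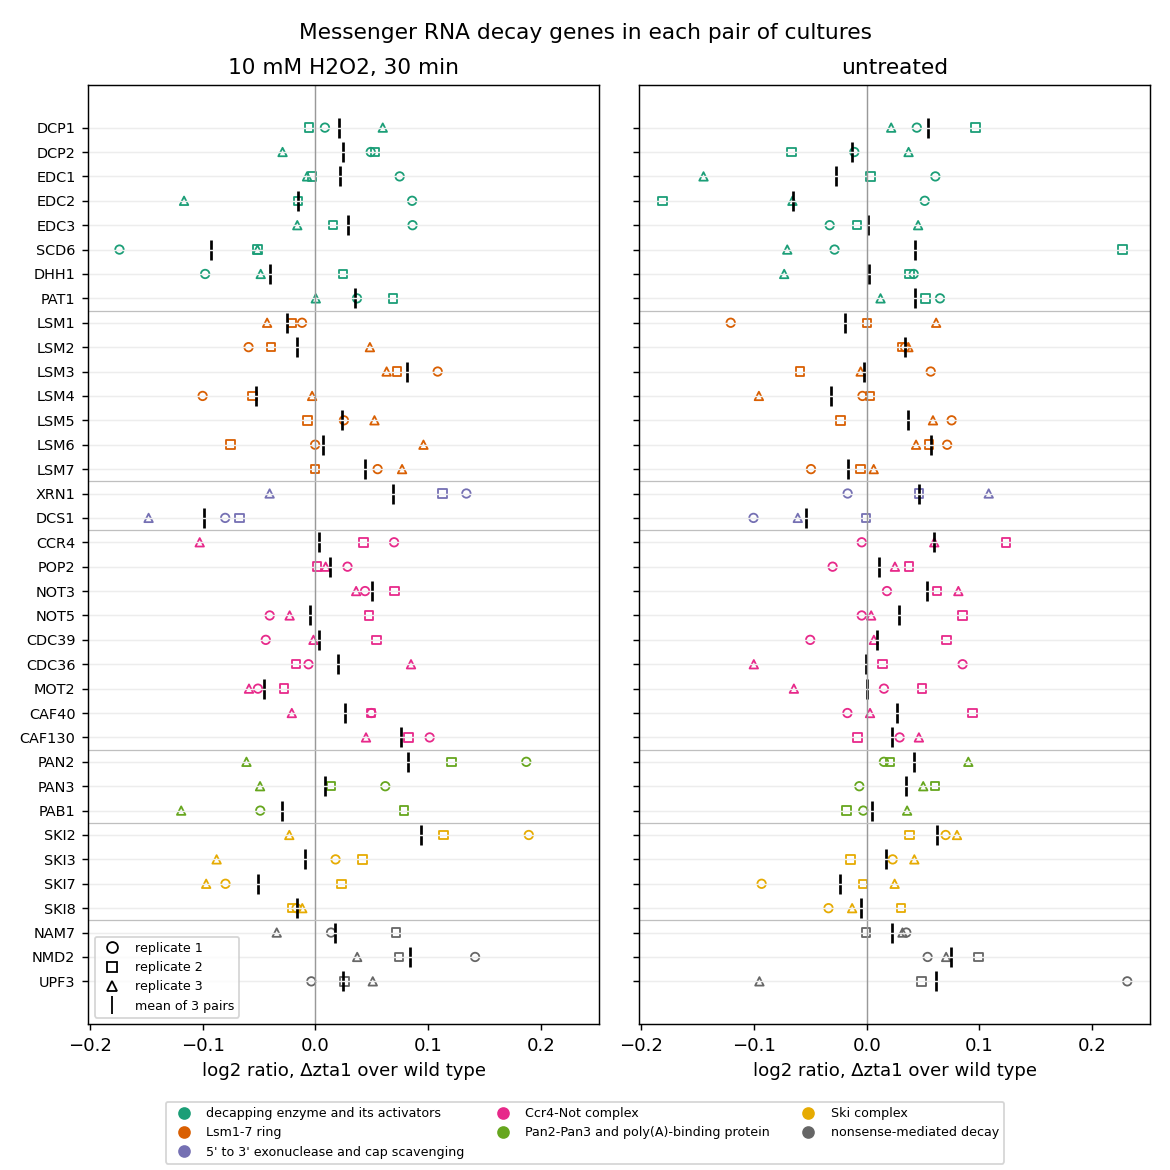
Log2 ratio of ∆zta1 over wild type (horizontal axis) for each of the 36 genes (rows, coloured by role) in each pair of cultures, H2O2 on the left and untreated on the right. Open symbols are the 3 pairs, each the mean of 2 dye-swapped arrays, and the black tick is their mean. The symbols lie between -0.18 and 0.23, and those of most genes fall on both sides of 0.

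The intervals give the ratios that remained compatible with these pairs, gene by gene, and not the size that the test could have detected. Each 95% interval of limma's estimate, not widened for the number of genes, stayed within a log2 ratio of 0.25 for all 36 genes in either treatment. For all genes this held for 96.5% under H2O2 and 95.9% in untreated cells. Over the mean of both treatments every member's interval stayed within 0.2, as did that of 96.6% of all genes. The widest bounds were -0.22 and 0.19 under H2O2, for SCD6 and PAN2, and -0.18 and 0.18 in untreated cells, for EDC2 and UPF3. The spread between pairs was like that of other genes, with a median SD of 0.049 under H2O2 (all genes, 0.058) and 0.050 in untreated cells (all genes, 0.053).

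**Figure D2:**
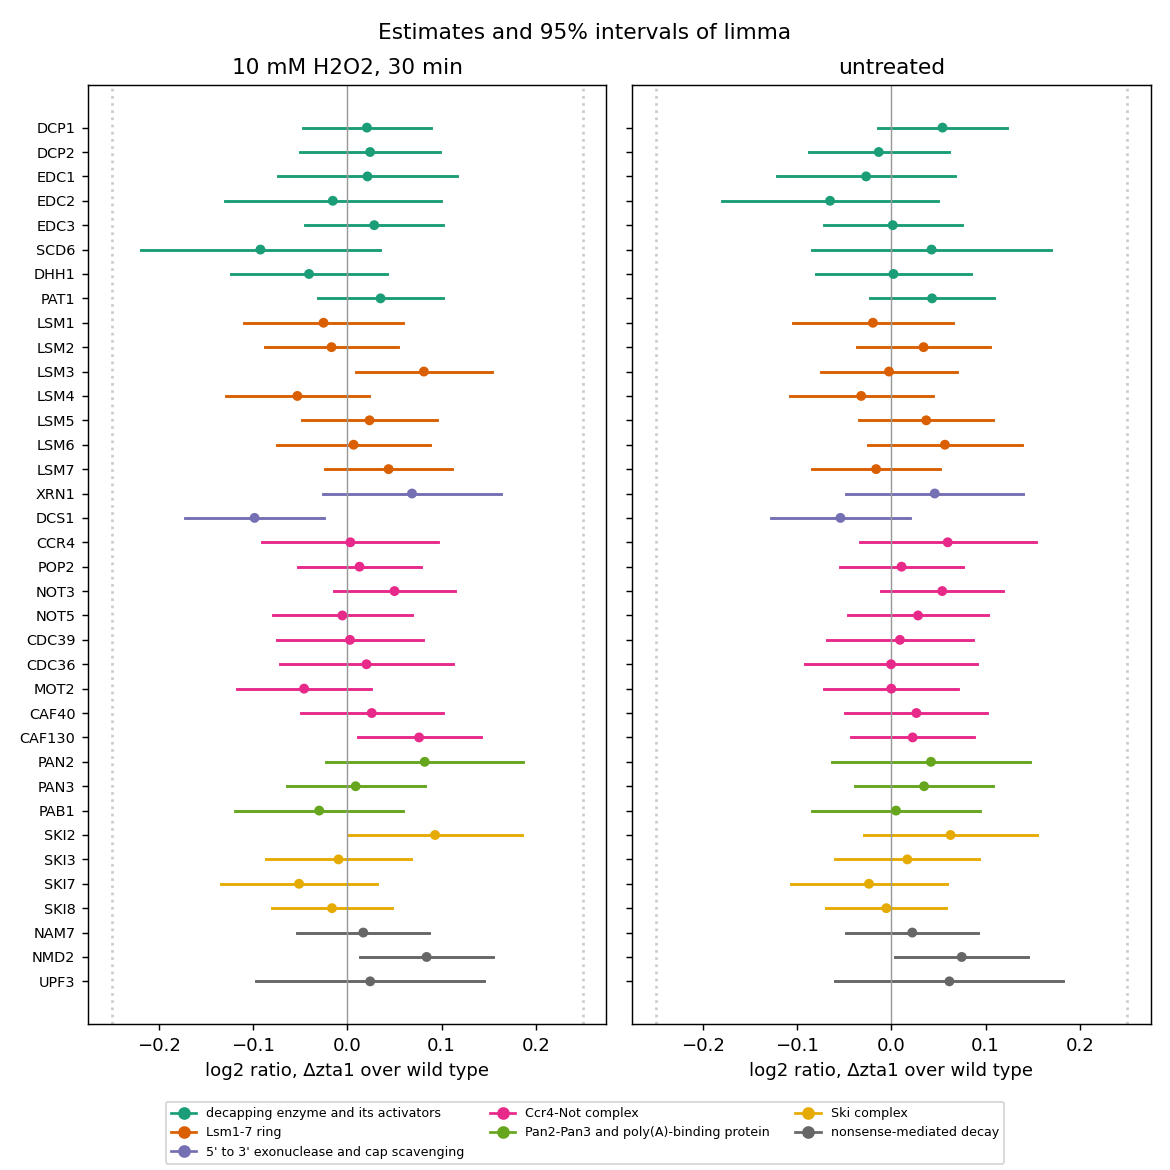
Mean log2 ratio of ∆zta1 over wild type (points) and its 95% interval from limma (bars) for each gene, H2O2 on the left and untreated on the right. Dotted lines mark -0.25 and 0.25. No bar reaches a dotted line, and the bars of 5 genes under H2O2 and 1 in untreated cells leave out 0.

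Among the 8 genes of the decapping enzyme and its activators none passed, and the ratios ran from -0.092 to 0.035 under H2O2 and -0.065 to 0.054 in untreated cells. DCP2 (YNL118C), the catalytic subunit, had 0.049, 0.053 and -0.029 in the H2O2 pairs and -0.011, -0.067 and 0.037 in the untreated pairs. DCP1 (YOL149W), its essential partner in decapping, had 0.0084, -0.0057 and 0.060 in the H2O2 pairs and 0.044, 0.097 and 0.022 in the untreated pairs. The untreated values of DCP1 were all above 0 and those under H2O2 straddled it, with a mean of 0.021 ± 0.034 under H2O2 and 0.054 ± 0.038 in untreated cells (SD, n = 3 pairs each; limma adjusted p under H2O2 = 0.866). PAT1 (YCR077C), the scaffold that joins Dcp2, Xrn1 and the Lsm ring, was above 0 in all 6 pairs. Its ratios were 0.037, 0.069 and 0.00027 in the H2O2 pairs and 0.065, 0.052 and 0.012 in the untreated pairs, a mean over both treatments of 0.039 ± 0.021 (SE) with limma adjusted p = 0.584.

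EDC1 and EDC2 encode small related proteins that stimulate decapping. EDC2 (YER035W) had the lowest mean of this group over both treatments, with 0.086, -0.015 and -0.12 in the H2O2 pairs and 0.052, -0.18 and -0.066 in the untreated pairs. Either treatment held pairs on both sides of 0, and the SD was 0.10 under H2O2 and 0.12 in untreated cells, larger than the mean. EDC1 (YGL222C) had means of 0.021 under H2O2 and -0.027 in untreated cells. EDC3 (YEL015W), a scaffold of processing bodies, had 0.029 and DHH1 (YDL160C), the DEAD-box helicase that represses translation and promotes decapping, had -0.041 under H2O2. In untreated cells these had 0.0014 and 0.0022.

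SCD6 (YPR129W), an RGG-motif repressor of translation, varied most in this group. It had -0.17, -0.051 and -0.051 in the H2O2 pairs and -0.028, 0.23 and -0.070 in the untreated pairs. The value of untreated replicate 2 was far above those of the other 5 pairs, which were all below 0. The mean was -0.092 ± 0.071 under H2O2 and 0.043 ± 0.16 in untreated cells (SD, n = 3 pairs each; limma adjusted p under H2O2 = 0.658). Over both treatments it was -0.025, and -0.071 without untreated replicate 2 (limma adjusted p = 0.458).

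The 7 genes of the Lsm1-7 ring had ratios from -0.053 to 0.081 under H2O2 and -0.032 to 0.057 in untreated cells, with medians of 0.0066 under H2O2 and -0.0025 in untreated cells, and none passed. LSM1 is particular to the cytoplasmic ring of decay, while the proteins of LSM2 to LSM7 also form a nuclear ring with Lsm8 that binds U6 RNA. LSM3 (YLR438C-A) had the highest mean, with 0.11, 0.072 and 0.063 in the H2O2 pairs and 0.057, -0.059 and -0.0053 in the untreated pairs. All 3 H2O2 pairs lay above all 3 untreated pairs. Under H2O2 the mean was 0.081 ± 0.024 (SD, n = 3 pairs; limma adjusted p = 0.595) and in untreated cells -0.0025 ± 0.058.

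LSM4 (YER112W), whose protein has an asparagine-rich tail that takes part in processing bodies, had the lowest mean of the ring. Its ratios were -0.10, -0.056 and -0.0030 in the H2O2 pairs and -0.0037, 0.0032 and -0.096 in the untreated pairs, and all but 1 were below 0. The mean over both treatments was -0.043 ± 0.024 (SE), with limma adjusted p = 0.595. LSM1 (YJL124C) had means of -0.025 under H2O2 and -0.020 in untreated cells. Under H2O2 the means were -0.017 for LSM2, 0.024 for LSM5, 0.0066 for LSM6 and 0.044 for LSM7. In untreated cells they were 0.034, 0.037, 0.057 and -0.016 in the same order of genes. The subunits of the ring therefore had ratios on both sides of 0 in either treatment.

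XRN1 (YGL173C), the cytoplasmic 5′ to 3′ exonuclease, had 0.13, 0.11 and -0.041 in the H2O2 pairs and -0.017, 0.047 and 0.11 in the untreated pairs. It was above 0 in 4 of 6 pairs and the treatments overlapped, with means of 0.069 ± 0.095 under H2O2 and 0.046 ± 0.063 in untreated cells (SD, n = 3 pairs each; limma adjusted p under H2O2 = 0.658). DCS1 (YLR270W), the scavenger pyrophosphatase that hydrolyses leftover caps, had -0.080, -0.067 and -0.15 in the H2O2 pairs and -0.10, -0.00075 and -0.061 in the untreated pairs. It was the only member below 0 in all 6 pairs. Its mean was -0.098 ± 0.043 under H2O2, a fold of 0.934 (limma adjusted p = 0.592), and -0.054 ± 0.050 in untreated cells. Over both treatments DCS1 had -0.076 ± 0.023 (SE), the lowest of the 36, with limma adjusted p = 0.469 and an interval of -0.13 to -0.024.

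The 9 genes of the Ccr4-Not complex had the narrowest spread of the larger groups, from -0.046 to 0.076 under H2O2 and -0.00037 to 0.060 in untreated cells, and none passed. The 2 deadenylases, CCR4 (YAL021C) and POP2 (YNR052C), had 0.0032 and 0.013 under H2O2 and 0.060 and 0.011 in untreated cells. CDC39 (YCR093W), the Not1 scaffold on which the complex is built, had 0.0028 under H2O2 and 0.0091 in untreated cells, and CDC36 (YDL165W), the Not2 subunit, had 0.020 and -0.00037. These 4 genes lay on both sides of 0 among the pairs of either treatment, apart from POP2 under H2O2.

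NOT3 (YIL038C) was above 0 in all 6 pairs, with 0.044, 0.070 and 0.036 in the H2O2 pairs and 0.018, 0.062 and 0.081 in the untreated pairs. Its mean was 0.050 ± 0.018 under H2O2 and 0.054 ± 0.033 in untreated cells (SD, n = 3 pairs each; limma adjusted p under H2O2 = 0.647), and 0.052 ± 0.020 (SE) over both (limma adjusted p = 0.499). NOT5 (YPR072W), whose sequence is related to that of NOT3, had -0.0053 under H2O2 and 0.028 in untreated cells. CAF130 (YGR134W) had 0.10, 0.082 and 0.045 in the H2O2 pairs and 0.029, -0.0079 and 0.046 in the untreated pairs. It was above 0 in 5 of 6 pairs, and its mean over both treatments was 0.049 ± 0.020 (SE) with limma adjusted p = 0.507. MOT2 (YER068W), the Not4 ubiquitin ligase, was below 0 in all H2O2 pairs, with -0.051, -0.028 and -0.059 in the H2O2 pairs and 0.015, 0.049 and -0.065 in the untreated pairs. Its adjusted p in limma was 0.693 under H2O2. CAF40 (YNL288W) had 0.026 under H2O2 and 0.027 in untreated cells.

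PAN2 (YGL094C) encodes the nuclease and PAN3 (YKL025C) the regulatory subunit of the other deadenylase. PAN2 had 0.19, 0.12 and -0.061 in the H2O2 pairs and 0.015, 0.021 and 0.090 in the untreated pairs. The untreated values were all above 0, while H2O2 replicate 3 was below 0 and the other H2O2 pairs were the highest of the 6. Its mean was 0.082 ± 0.13 under H2O2 and 0.042 ± 0.042 in untreated cells (SD, n = 3 pairs each; limma adjusted p under H2O2 = 0.641). PAN3 had 0.0088 under H2O2 and 0.035 in untreated cells. PAB1 (YER165W), the poly(A)-binding protein that coats the tail, had -0.049, 0.079 and -0.12 in the H2O2 pairs and -0.0030, -0.018 and 0.036 in the untreated pairs. Its values straddled 0 in both treatments, at a mean over both of -0.012 (limma adjusted p = 0.893).

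In the Ski complex, which threads messages into the exosome, SKI2 (YLR398C), the helicase, had the highest ratio under H2O2 of all 36 genes. It had 0.19, 0.11 and -0.023 in the H2O2 pairs and 0.070, 0.038 and 0.080 in the untreated pairs. All pairs but H2O2 replicate 3 were above 0, and the H2O2 pairs spread more widely than the untreated ones. The mean was 0.093 ± 0.11 under H2O2 (limma adjusted p = 0.598) and 0.063 ± 0.022 in untreated cells (SD, n = 3 pairs each). SKI7 (YOR076C), which bridges the complex to the exosome, had -0.080, 0.023 and -0.097 in the H2O2 pairs and -0.093, -0.0031 and 0.025 in the untreated pairs. It was below 0 in 4 of 6 pairs, with a mean over both treatments of -0.038 ± 0.026 (SE) and limma adjusted p = 0.642. SKI3 (YPR189W), the scaffold, had -0.0094 under H2O2 and 0.017 in untreated cells. SKI8 (YGL213C), the WD-repeat subunit, had -0.016 and -0.0053. The mean ratios of these 4 genes thus lay on both sides of 0 in either treatment.

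All 3 genes of nonsense-mediated decay had mean ratios above 0 in either treatment, and none passed. Of all genes, 47.9% were above 0 under H2O2 and 50.6% in untreated cells. NMD2 (YHR077C), the Upf2 protein that links Upf1 to Upf3, had 0.14, 0.074 and 0.037 in the H2O2 pairs and 0.054, 0.099 and 0.070 in the untreated pairs. Every pair was above 0, and the treatments overlapped. Its mean was 0.084 ± 0.053 under H2O2, a fold of 1.06, and 0.075 ± 0.023 in untreated cells, a fold of 1.05 (SD, n = 3 pairs each; limma adjusted p under H2O2 = 0.595). Over both treatments NMD2 had the highest ratio of the 36, 0.079 ± 0.022 (SE) with an interval of 0.030 to 0.13 and limma adjusted p = 0.469. NAM7 (YMR080C), the Upf1 helicase, had 0.014, 0.071 and -0.034 in the H2O2 pairs and 0.035, -0.00044 and 0.032 in the untreated pairs, and its mean over both was 0.020 (limma adjusted p = 0.770). UPF3 (YGR072W) had -0.0037, 0.026 and 0.051 in the H2O2 pairs and 0.23, 0.049 and -0.095 in the untreated pairs. The untreated pairs of UPF3 spread from the highest value of any member in any pair to one below 0. The arrays of that lowest pair had 0.0044 with ∆zta1 in Cy5 and -0.19 with it in Cy3. Averaged over the arrays of each orientation, all 3 genes changed sign with the dye. In Cy5 and Cy3 the averages were 0.24 and -0.080 for NMD2, -0.040 and 0.079 for NAM7, and 0.094 and -0.0080 for UPF3.

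PAT1, NOT3 and NMD2 were above 0 in every pair, which is 3 of 36 genes, or 8.33%, against 3.09% of all genes. DCS1 alone was below 0 in every pair, which is 2.78% against 3.74%. Under H2O2 6 genes were above 0 in 3 of 3 pairs (all genes, 14.2%) and 6 below 0 (all genes, 15.8%). In untreated cells the counts were 8 above (all genes, 10.5%) and 1 below (all genes, 11%), which was DCS1.

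Whether the strain ratio depended on peroxide was asked through the difference between the H2O2 and untreated ratios. None of the 36 genes passed in limma, with an adjusted p of 0.9993 for each, and 0% of all genes did. At an unadjusted p under 0.05 there were 0 members and 1.27% of all genes. It was above 0 for 13 of 36 genes (all genes, 48.6%), for 8 without H2O2 replicate 1 and for 20 without H2O2 replicate 3. The share of all genes was not counted with a pair left out, so this shift cannot be assigned to the members. The difference ranged from -0.13 for SCD6 to 0.084 for LSM3. SCD6 differed by -0.13 ± 0.079 (SE), with an interval of -0.31 to 0.044. LSM3 differed by 0.084 ± 0.045 (SE), with an interval of -0.018 to 0.19 and was the only member whose treatments did not overlap. Every H2O2 pair lay above every untreated pair for 2.78% of the members and 2.66% of all genes, and the opposite held for 0% and 2.88%. Differences above 0 with the next smallest p were those of LSM7 (0.060) and CAF130 (0.054). Below 0 they were those of LSM2 (-0.051) and MOT2 (-0.046). LSM2 had -0.059, -0.039 and 0.048 in the H2O2 pairs and 0.034, 0.031 and 0.037 in the untreated pairs. Its untreated values nearly coincided and lay among those under H2O2. LSM7 had 0.055, -0.00047 and 0.077 in the H2O2 pairs and -0.049, -0.0055 and 0.0063 in the untreated pairs, with an overlap at values close to 0. The intervals of 35 of 36 differences stayed within 0.25 (all genes, 91.1%), SCD6 being the exception.

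The dye part of the ratios was larger in size than the strain part for 27 of 36 members (75%), as it was for 72.2% of all genes. In a fit of all 12 arrays with a dye term, that term passed for 25 of 36 genes (69.4%), against 65.1% of all genes, at a limma adjusted p under 0.05. The median size of the dye part, taken as the difference between the orientations divided by 2, was 0.059 on the log2 scale, against 0.026 for the strain ratio over both treatments. NOT3 had the largest dye part. It averaged 0.23 ± 0.029 on arrays with ∆zta1 in Cy5 and -0.12 ± 0.036 on arrays with ∆zta1 in Cy3 (SD over 6 arrays each). NMD2 averaged 0.24 ± 0.048 in Cy5 and -0.080 ± 0.064 in Cy3. The highest Cy3 array was at -0.068 for NOT3 and -0.0049 for NMD2, while every Cy5 array of either gene was above 0. The sign seen for them in all 6 pair means was therefore not shared by their Cy3 arrays.

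Within a single dye orientation, strain and dye cannot be told apart. With ∆zta1 in Cy5, 15 of 36 genes passed over the mean of both treatments (all genes, 36.9%), and with ∆zta1 in Cy3, 10 passed (all genes, 26.4%). EDC3, CCR4, NOT3, NOT5 and SKI3 passed in both orientations, in opposite directions (16.2% of all genes). No member passed in both with the same direction, while 0.465% of all genes did. DCS1 was on the same side of 0 in both orientations, at -0.14 in Cy5 (limma adjusted p = 0.00464) and -0.0096 in Cy3 (adjusted p = 0.811). SKI2 was above 0 in both, at 0.068 in Cy5 and 0.088 in Cy3 (limma adjusted p = 0.0901 and 0.0839). CAF130 was above 0 in both too, at 0.080 and 0.019. No member had the same sign on all 12 arrays, which 0.608% of all genes had.

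**Figure D3:**
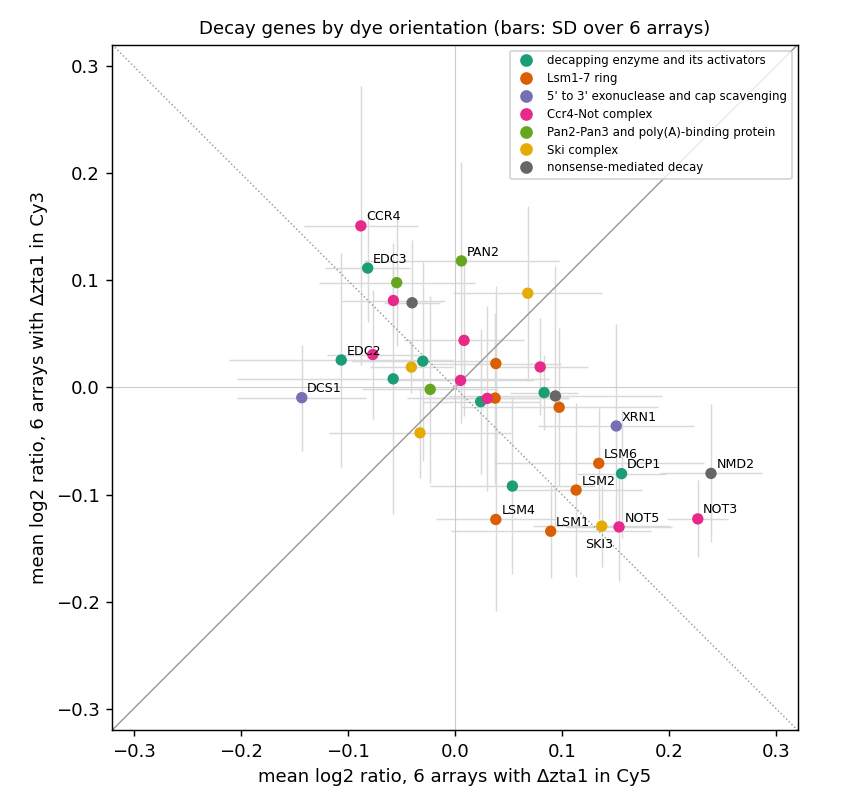
Mean log2 ratio of ∆zta1 over wild type on the 6 arrays with ∆zta1 in Cy5 (horizontal axis) and on the 6 with ∆zta1 in Cy3 (vertical axis) for the 36 genes, with bars of 1 SD over arrays. A strain effect alone would put genes on the solid diagonal and a dye effect alone on the dotted one. NOT5, SKI3, CCR4 and EDC3 lie near the dotted line, and NMD2 and NOT3 have the highest ratios in Cy5 with ratios below 0 in Cy3.

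The relation between ratio and gene length changed from pair to pair. The length classes used here were chosen after values had been seen, and the correlations are across genes, which are not independent replicates. Spearman's rho between length and ratio over the 36 genes was 0.28, 0.72 and -0.37 in the H2O2 pairs and -0.16, 0.21 and 0.48 in the untreated pairs. Over all 5594 genes it was 0.15, 0.41 and -0.20 in the H2O2 pairs and -0.082, 0.034 and 0.29 in the untreated pairs. The sign of rho over the members was that over all genes in every pair. The 7 members of at least 3000 bases are XRN1, CDC39, CAF130, PAN2, SKI2, SKI3 and NMD2. Their median ratio came to 0.13, 0.082 and -0.023 in the H2O2 pairs, against 0.0084, -0.015 and 0.052 for the 11 members under 1000 bases. In the untreated pairs it was 0.023, 0.038 and 0.070, against 0.052, 0.0032 and 0.0063 for the short members. Long members were the higher class in H2O2 replicates 1 and 2 and untreated replicates 2 and 3, and the lower class in H2O2 replicate 3 and untreated replicate 1.

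Over the mean of both treatments all 7 long members were above 0, and so were 75.1% of the 485 genes of that length. Of the genes under 1000 bases, 7 of 11 members and 43.3% of all 2098 were above 0. The members are longer than other genes, with a median of 1588.5 bases against 1248. SKI2, NMD2 and CAF130, which are among the 4 members above 0 with an unadjusted p under 0.05 over both treatments, belong to the long class. The part of length in these ratios was not tested.

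**Figure D4:**
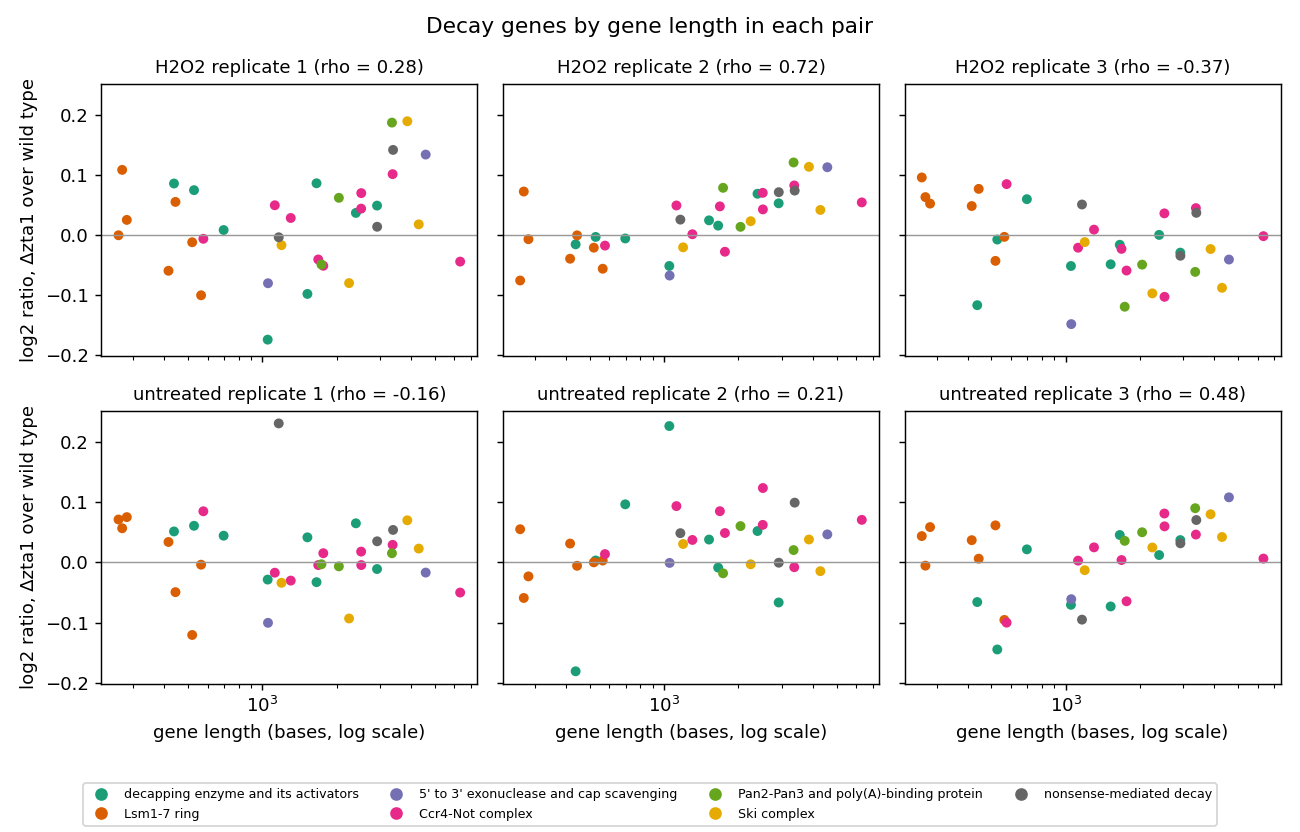
Log2 ratio of ∆zta1 over wild type (vertical axis) against gene length in bases (horizontal axis, log scale) for the 36 genes, coloured by role, in each pair, H2O2 above and untreated below. Each panel's title gives Spearman's rho. Ratios climb with length in H2O2 replicate 2 (rho = 0.72) and descend in H2O2 replicate 3 (rho = -0.37).

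Other genes of RNA decay, taken from lists drawn up for these data, were also measured, and 0 of 43 passed in limma in any comparison. At an unadjusted p under 0.05 there were 2 of 43 under H2O2 (all genes, 8.29%), 1 in untreated cells (all genes, 3.65%) and 4 over both (all genes, 9.46%). The exosome digests RNA from the 3′ end, and its 13 genes with cofactors had medians of 0.021 under H2O2 and 0.0051 in untreated cells. At an unadjusted p under 0.05 there was 1 of 13 under H2O2, RRP6, the nuclear exosome nuclease (0.081), and none in untreated cells, beside the same shares of all genes. By pair, the exosome genes had median ratios of -0.030, 0.027 and 0.074 in the H2O2 pairs and 0.034, 0.028 and -0.050 in the untreated pairs. It was lowest in untreated replicate 3 and highest in H2O2 replicate 3, where the median of the 36 decay genes was below 0. The median length of the exosome genes is 798 bases.

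The 5 genes of the TRAMP complex, which adds short tails to nuclear RNAs, had medians of 0.039 under H2O2 and 0.0024 in untreated cells. TRF5, one of its poly(A) polymerases, had 0.027, 0.11 and 0.092 in the H2O2 pairs and 0.042, 0.12 and 0.00049 in the untreated pairs, with a mean over both of 0.066 ± 0.024 (SE) and limma adjusted p = 0.480. The 7 genes of the cap-binding complex and its inhibitors had medians of -0.031 under H2O2 and -0.0059 in untreated cells. TIF4631, a scaffold of translation initiation that binds Pab1, had 0.078, 0.061 and -0.0091 in the H2O2 pairs and 0.083, 0.064 and 0.13 in the untreated pairs, with a mean over both of 0.068 ± 0.022 (SE) and limma adjusted p = 0.474. TRF5 was above 0 in all 6 pairs and TIF4631 in 5. PUB1, a poly(U)-binding protein of stress granules, was below 0 in all 6 pairs. Its ratios were -0.099, -0.0067 and -0.21 in the H2O2 pairs and -0.022, -0.0059 and -0.086 in the untreated pairs, a mean of -0.071 ± 0.028 (SE) with limma adjusted p = 0.507. The sign of PUB1 and of TRF5 nevertheless changed with the dye. PUB1 averaged -0.17 on arrays with ∆zta1 in Cy5 and 0.031 on those with it in Cy3, and TRF5 -0.031 and 0.16. TIF4631 was above 0 in both orientations, at 0.082 in Cy5 and 0.054 in Cy3. The 4 genes of nuclear 5′ to 3′ decay with LSM8 ranged from -0.020 to 0.024 under H2O2 and from -0.021 to 0.019 in untreated cells. The 14 measured genes of the remaining list had medians of -0.019 under H2O2 and -0.0071 in untreated cells.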

How the data were processed

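Values are log2 ratios deposited by the authors, 1 for every probe on each of 12 2-colour Agilent arrays. limma is the only program that the submitters' processing notes name. The authors' background correction and normalisation, the scale and the direction are not given in the sources used here. Values were read as log2, the base limma writes, and as ∆zta1 over wild type on every array, from the titles and from ZTA1. The column medians lay between -0.017 and 0.017. No intensities are in the table, so signal over background is unknown and the number of pairs limits the precision. Of 6256 probes, 5620 had 1 gene and 636 none, and all gene identifiers matched RefSeq assembly R64. Probes of 25 genes were averaged.

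The 2 arrays of a pair were averaged, and limma 3.58.1 in R 4.3.3 was run on 5594 genes over the 6 pairs (1 mean per treatment, 4 residual degrees of freedom), with two-sided tests adjusted over all genes by Benjamini-Hochberg. The fit was tested on simulated data with independent normal noise for each gene. These held no dye part and no pair effect shared by genes, so the test did not cover either. In both treatments 1 array of replicate 3 is described as replicate 2, and titles were followed. The labels call the pairs biological replicates. Alternatives concerned scaling, dye, blocks, probes, weights and single pairs. NGR1, of the other decay genes, was not measured.

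The members and lists were chosen with earlier results of these data known. All members are named. Values per pair are given for the 3 members per direction with the smallest p in each comparison and for the highest and lowest of each role. DCP2 and UPF3 were added after their values were seen. Of the other decay genes, the 3 with the smallest p over both treatments are described, and RRP6 was added after its values were seen.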

Additional observations from a re-analysis of the deposited data

How the results depend on the processing

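The count of decay genes passing was 0 in all 4 comparisons with every alternative except the single dye orientations, which by construction keep the dye part. With ∆zta1 in Cy5 alone it was 8 under H2O2, 6 in untreated cells, 0 for their difference and 15 for their mean, among 929, 906, 0 and 2063 of all genes. With ∆zta1 in Cy3 alone it was 2, 1, 0 and 10, among 420, 562, 0 and 1477, and the median of the 36 was -0.014 under H2O2 and -0.0020 in untreated cells. Signs over both treatments were followed for the 19 members described by pair under the naming rule, not for the other members. Among these 19 the sign turned in Cy5 alone for LSM4 (0.038) and NAM7 (-0.040), and in Cy3 alone for DCP1 (-0.080), EDC2 (0.026), SCD6 (0.0080), PAT1 (-0.0048), LSM2 (-0.096), LSM3 (-0.019), LSM7 (-0.0099), XRN1 (-0.036), NOT3 (-0.12), MOT2 (0.031) and NMD2 (-0.080). With pairs weighted by quality, chosen after seeing the data, it turned among the 19 for PAB1 (0.0073). With single pairs left out it turned among the 19 for LSM2 (-0.0076 to 0.019), PAB1 (-0.040 to 0.0099) and SCD6 (-0.071 to 0.0035), while the smallest adjusted p of any of the 36 was 0.326.

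Replicate numbers were not used to pair the treatments in the main fit. Same-numbered pairs had correlations of -0.014, 0.031 and -0.27 between their deviations from the treatment means. Those of other-numbered pairs lay between -0.14 and 0.26. With 3 pairs per treatment, these values cannot show how the cultures had been paired. With the replicate block, 0 decay genes passed in each comparison, among 10 genes under H2O2, 10 in untreated cells, 0 for the difference and 13 for the mean (no block, 12, 11, 0 and 16). With that block 2 decay genes under H2O2, 0 in untreated cells and 3 over both had an unadjusted p under 0.05, and with weights 7, 2 and 8 (with neither, 5, 1 and 5). For all genes these counts were 347, 193 and 423 with the block and 616, 207 and 732 with weights. With neither they were 464, 204 and 529. For the mean, 30 genes passed with 12 arrays and a dye term and 28 with weights. Under H2O2, 7 passed without H2O2 replicate 1 and 6 without H2O2 replicate 3, and for the difference 3 passed without untreated replicate 2, none of them a decay gene.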
